A study of Mus musculus with 6 samples.

Results

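The genes described here move phosphate across kidney epithelia or make, break down and read the hormonal form of vitamin D. They were chosen by symbol, and all 10 were found among the 24422 genes of the count table: Slc34a1, Slc34a3, Slc20a1, Slc20a2, Pdzk1, Slc9a3r1, Kl, Cyp24a1, Cyp27b1 and Vdr. Poly-A RNA was counted in 6 libraries from whole kidneys of C57BL/6 mice at postnatal day 13, all fed an iron sufficient diet with 220 ppm iron. The 3 Control libraries were labelled wild type. The 3 knockout libraries were titled TfR1KO;Six2Cre, with the genotype given as Tfr1f/f;SixCre, so that exons 3 and 4 of the transferrin receptor gene, which are flanked by loxP sites, could be removed by a Cre-EGFP fusion expressed from Six2 in the progenitors of the nephron. The collecting duct, which comes from the ureteric bud, and the stroma lie outside that lineage, and the study describes receptor-positive tubule cells at this age that had escaped deletion. The study gives as many mice for the model as there are knockout libraries and littermate wild type controls, and the labels do not tie a library to an animal. The p-values take these 6 libraries as the units. Those of the gene tests set the difference between groups against the spread of libraries within a group.

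Filtered phosphate is taken back from the urine in the proximal tubule by sodium-coupled cotransporters of the brush border, chiefly Slc34a1 and Slc34a3. The hormone FGF23, which acts through Fgf receptors paired with klotho (Kl), and parathyroid hormone both reduce this uptake. Cyp27b1 makes calcitriol, the active form of vitamin D, Cyp24a1 inactivates it, and both are regulated in the kidney by these hormones and by calcitriol itself, which acts through the receptor Vdr.

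Promoter sequences are shown for the pair of brush border cotransporters, one of which fell while the other did not pass the test, and for Kl and Cyp27b1, which moved in opposite directions. RefSeq sequences on GRCm38.p6 were matched for 8 of the 10 genes, and each runs 5′ to 3′ on the strand of its gene, from 250 bases before the start to 50 bases from the start on. Capitals mark matches, on either strand, to 5 short motifs. GTTAAT is a half-site of HNF1, a factor of the proximal tubule. AGGTCA is a half-site of nuclear receptors. TATAAA stands for the TATA box, GGGCGG for the GC box, and CCAAT for the element of that name. No matches overlapped in the sequences printed.
Slc34a1, chr13:55399398-55399697, plus strand: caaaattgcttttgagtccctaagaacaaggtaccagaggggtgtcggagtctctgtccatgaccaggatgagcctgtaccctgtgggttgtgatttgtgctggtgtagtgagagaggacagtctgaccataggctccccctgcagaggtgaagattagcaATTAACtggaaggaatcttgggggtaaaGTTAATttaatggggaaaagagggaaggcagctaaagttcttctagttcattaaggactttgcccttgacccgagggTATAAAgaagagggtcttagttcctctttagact
Slc34a3, chr2:25234185-25234484, minus strand: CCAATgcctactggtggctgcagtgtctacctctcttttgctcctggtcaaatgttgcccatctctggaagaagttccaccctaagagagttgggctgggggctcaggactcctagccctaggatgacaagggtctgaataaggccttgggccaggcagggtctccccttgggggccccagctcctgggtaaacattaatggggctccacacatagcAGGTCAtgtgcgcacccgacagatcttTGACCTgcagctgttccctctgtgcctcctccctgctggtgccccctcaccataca
Kl, chr5:150952357-150952656, plus strand: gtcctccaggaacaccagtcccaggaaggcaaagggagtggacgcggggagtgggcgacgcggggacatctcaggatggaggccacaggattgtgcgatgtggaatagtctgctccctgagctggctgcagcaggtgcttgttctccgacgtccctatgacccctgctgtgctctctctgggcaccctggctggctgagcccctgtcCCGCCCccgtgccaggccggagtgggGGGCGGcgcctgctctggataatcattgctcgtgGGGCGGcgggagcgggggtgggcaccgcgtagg
Cyp27b1, chr10:127047996-127048295, plus strand: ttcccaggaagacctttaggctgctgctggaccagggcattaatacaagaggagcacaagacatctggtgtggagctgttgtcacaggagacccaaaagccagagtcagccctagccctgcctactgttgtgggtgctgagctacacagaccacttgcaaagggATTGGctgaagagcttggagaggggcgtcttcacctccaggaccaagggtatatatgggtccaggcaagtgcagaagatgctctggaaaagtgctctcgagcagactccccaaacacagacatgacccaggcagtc

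The window of Slc34a1 held GTTAAT at 61 bases before the start and, on the opposite strand, at 89 bases before it, and TATAAA in the transcribed part. The window of Slc34a3 held AGGTCA on both strands, at 33 and 6 bases before the start, and a CCAAT match at its far end. GC boxes stood at 3 places around the start of Kl, and 1 CCAAT match on the opposite strand was the only match in the Cyp27b1 window. Among all 32851 promoter windows of 300 bases, 7.1% held GTTAAT, 16.3% AGGTCA, 13.6% TATAAA, 37.4% CCAAT and 35.7% GGGCGG. A match is a run of letters and was not tested for binding.

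Of the 10 genes, 3 rose and 2 fell in TfR1 knockout kidneys at an adjusted p under 0.05 (DESeq2 Wald test, adjusted over 16509 genes). The vitamin D enzymes Cyp24a1 and Cyp27b1 and the cotransporter Slc20a1 rose, and the cotransporter Slc34a3 and the FGF23 co-receptor Kl fell. Among all genes tested, 7.74% passed as higher and 7.18% as lower. The same 5 genes also changed by at least 2-fold, which 4.41% of all genes did upward and 4.46% downward. They were the ones past edgeR's quasi-likelihood test as well, against 3.22% of 15308 genes higher and 2.80% lower in that test. The groups did not overlap for 6 of the 10 genes and for 33.7% of all genes tested. The median log2 fold change was 0.18 over the 10 genes and 0.0071 over all genes tested. With library sizes scaled by total counts, 996 genes were higher and 1407 lower over the whole table, in place of 1277 and 1186, and the median of all genes shifted by -0.10 on the log2 scale; the 5 calls held under that scaling.

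**Figure D1:**
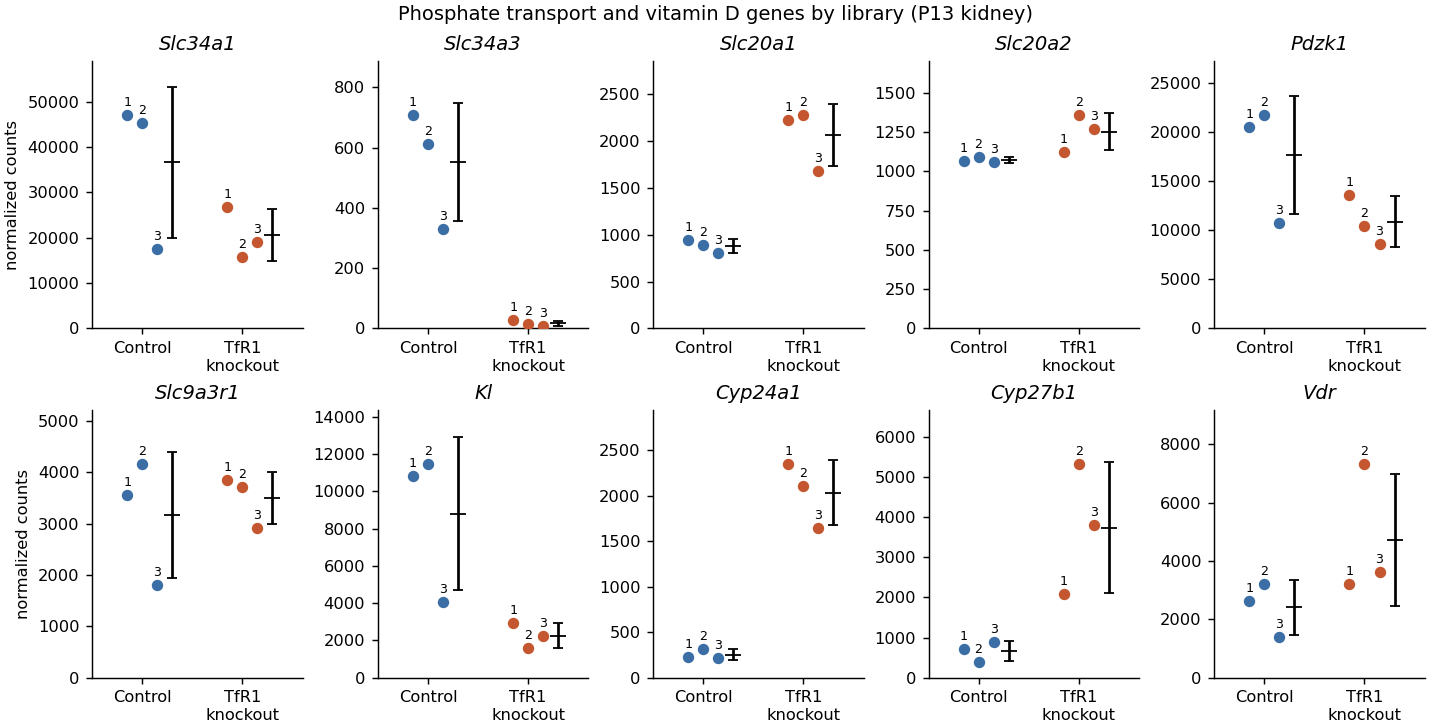
Normalized counts (linear axis from 0, one scale per gene) of the 10 genes in each Control (blue) and TfR1 knockout (orange) library. Numbers give the replicate, and black marks give the mean ± SD of 3 libraries. Slc34a3 lay at 26.8 or less in every knockout library and at 332 or more in every Control library, and Control replicate 3 was lower than the other Control libraries for every gene but Cyp27b1.

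The libraries held 16591156 to 22898008 counted reads. Control replicate 3 was the shallowest and stood apart from the other Control libraries. After normalization its sum over 20 proximal tubule markers was 163231, against 243676 and 262517 in Control replicates 1 and 2. Its sum over 6 stroma markers was higher, at 136075 against 70279 and 68423. TfR1 knockout replicate 2 stood apart within its own group. Its proximal tubule sum was 450727, against 265515 and 240422 in TfR1 knockout replicates 1 and 3, and its stroma sum was 36636, against 68959 and 61760. The targeted gene Tfrc had 5534, 6485 and 3667 normalized counts in the Control libraries (replicates 1 to 3, the order used below) and 6976, 4045 and 5898 in the knockout libraries. Its log2 fold change was 0.11 (SE 0.29) with a DESeq2 adjusted p of 0.853, so it does not check the labels. The sign turned to -0.095 without Control replicate 3 and to -0.072 without TfR1 knockout replicate 1.

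Slc34a3 encodes a sodium-phosphate cotransporter of the proximal brush border and lies at chr2:25084418-25089884 on the minus strand (mm9, with no exon shared with another gene). Normalized counts of 709.9, 614 and 332 were found in the Control libraries, and of 26.8, 15.4 and 9.46 in the knockout libraries. Every knockout library was far below every Control library. The mean fell from 552 ± 197 to 17.2 ± 8.84 (SD, n = 3 each), 32-fold lower in the knockout (log2 fold change -5.00, SE 0.44, 95% interval -5.87 to -4.14, DESeq2 adjusted p 7.59e-27, edgeR adjusted p 0.00336). The knockout values rest on 27, 12 and 10 reads, so their counting error is much larger than in the Control libraries. Leaving out any single library gave log2 fold changes from -5.50 to -4.69.

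Slc34a1, the more abundant cotransporter of the same membrane, lies at chr13:55501009-55516056 on the plus strand. It had 47169.9, 45339 and 17515 normalized counts in the Control libraries. In the knockout libraries it had 26865, 15737 and 19143. Control replicate 3 lay within the knockout range, so the groups overlapped. The difference did not pass the test (means 36675 ± 16618 and 20582 ± 5702, SD, n = 3 each; log2 fold change -0.83, SE 0.38, 95% interval -1.59 to -0.081, DESeq2 adjusted p 0.131, edgeR adjusted p 0.236). It passed without Control replicate 3 (-1.17, DESeq2 adjusted p 0.000177) and without TfR1 knockout replicate 1 (-1.07, DESeq2 adjusted p 0.0477).

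The paralogs were therefore set against each other within each library, which removes any scaling between libraries. The log2 ratio of Slc34a3 to Slc34a1 counts was -6.05, -6.21 and -5.72 in the Control libraries and -9.94, -9.94 and -10.91 in the knockout libraries. The groups did not overlap, and the mean ratio was lower by 4.27 (mean -5.99 ± 0.25 and -10.27 ± 0.56, SD, n = 3 each; exact two-sided permutation p 0.1, adjusted over 6 ratios 0.2). With 3 libraries against 3 the smallest p that this test can give is 0.1, so no ratio could pass a threshold of 0.05.

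Proximal tubule markers moved unevenly beside these transporters. Of the 20 markers, 6 fell and 2 rose in DESeq2 (3 and 2 in edgeR). Slc5a2, the glucose transporter SGLT2 of the early proximal tubule, fell (log2 fold change -5.12), and the organic anion transporter Slc22a6 and the gluconeogenic enzyme Pck1 rose (1.79 and 2.12). The summed level of the list ran from 163231 to 262517 normalized counts in the Control and from 240422 to 450727 in the knockout libraries, and no marker of the list was at 0. The median log2 fold change of the list was -0.43. Against the mean log2 level of the markers, the log2 ratio of Slc34a1 was 2.38 ± 0.33 in the Control and 2.27 ± 0.51 in the knockout libraries (SD, n = 3 each), with overlapping groups and an exact permutation p of 0.7 (adjusted 0.7). That of Slc34a3 was -3.61 ± 0.16 and -8.00 ± 0.53, with no overlap (difference -4.38, exact permutation p 0.1, adjusted 0.2). In whole-kidney RNA, fewer cells of a type and less RNA per cell cannot be told apart.

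**Figure D2:**
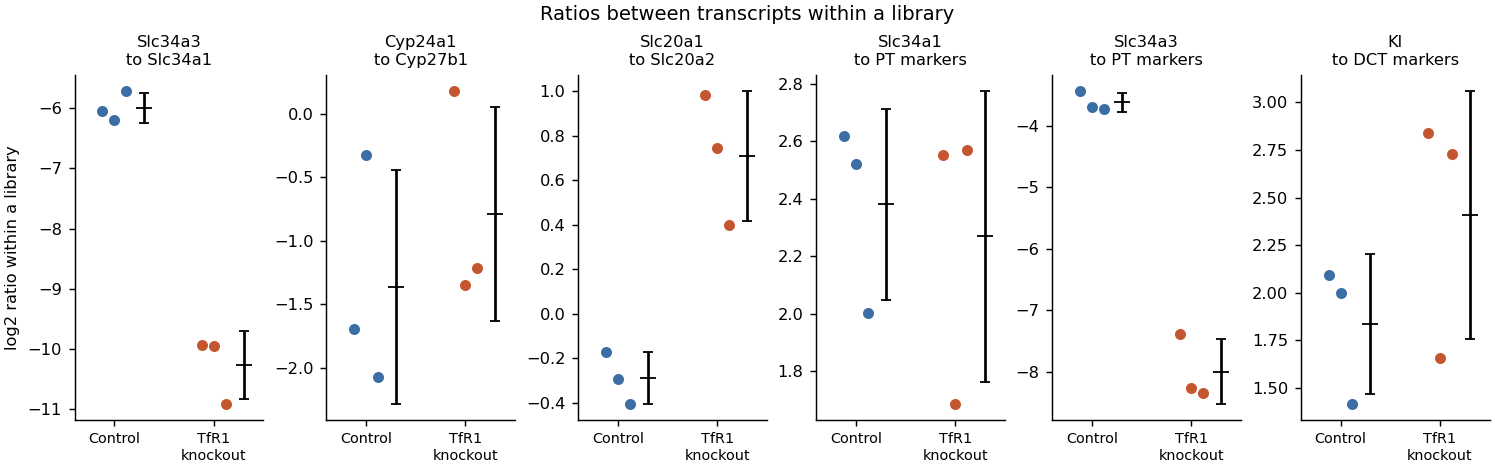
Log2 ratios between transcripts within each library (points) for Control (blue) and TfR1 knockout (orange), with the mean ± SD of 3 libraries in black. Each panel has its own axis; PT stands for proximal tubule and DCT for distal convoluted tubule. The ratios of Slc34a3 to Slc34a1, Slc34a3 to proximal tubule markers and Slc20a1 to Slc20a2 do not overlap between groups, and the other 3 do.

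The scaffold proteins Pdzk1 and Slc9a3r1 (NHERF1) hold Slc34a1 at the brush border through their PDZ domains. Pdzk1 (chr3:96633207-96674849, plus strand) had 20459, 21758 and 10761 normalized counts in the Control and 13619.8, 10425 and 8566 in the knockout libraries. Control replicate 3 again lay among the knockout libraries, and the difference did not pass (log2 fold change -0.70, SE 0.31, DESeq2 adjusted p 0.117). It passed without Control replicate 3 (-0.96, DESeq2 adjusted p 0.00113) and without TfR1 knockout replicate 1 (-0.89, DESeq2 adjusted p 0.0406). Of the 3556 exonic bases of Pdzk1, 39.4% overlap exons of genes on the opposite strand (1333 bases with Gpr89 and 68 with Cd160). Since the strand setting of the counting is not stated, the Pdzk1 counts may hold or miss reads of these genes. The same limit holds for smaller opposite-strand overlaps of Slc20a1 (8.1% of exonic bases), Slc34a1 (5.45%), Slc20a2 (4.93%) and Cyp24a1 (2.33%).

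Slc9a3r1 (chr11:115024655-115042495, plus strand) had 3555, 4167 and 1802 normalized counts in the Control and 3850.5, 3710.3 and 2909 in the knockout libraries. All knockout values lay inside the Control range. The log2 fold change was 0.14 (SE 0.32, 95% interval -0.49 to 0.76, DESeq2 adjusted p 0.828), and its sign turned without Control replicate 3 (-0.15).

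Slc20a1 and Slc20a2 encode sodium-phosphate cotransporters of another family, present in most cell types. Slc20a1 (chr2:129024500-129037352, plus strand) had 946, 891 and 801 normalized counts in the Control and 2222, 2282 and 1679 in the knockout libraries. The lowest knockout library was above the highest Control library. The mean rose from 879 ± 73.1 to 2061 ± 332 (SD, n = 3 each), 2.34-fold (log2 fold change 1.23, SE 0.19, 95% interval 0.85 to 1.61, DESeq2 adjusted p 1.72e-08, edgeR adjusted p 0.0086). Without any single library the log2 fold change stayed between 1.15 and 1.36.

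Slc20a2 (chr8:23587172-23680079, plus strand) had 1064, 1093 and 1060.3 normalized counts in the Control and 1126, 1363 and 1272 in the knockout libraries. The groups did not overlap, but the difference was small and did not pass (log2 fold change 0.22, SE 0.15, 95% interval -0.073 to 0.52, DESeq2 adjusted p 0.345). The log2 ratio of Slc20a1 to Slc20a2 within a library was -0.29 ± 0.12 in the Control and 0.71 ± 0.29 in the knockout libraries (SD, n = 3 each). That is a difference of 1.00 with no overlap (exact permutation p 0.1, adjusted 0.2).

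Per length of exon, Slc34a1 was the largest of the 4 cotransporter transcripts in every library. Its share of their summed reads per kilobase averaged 93.8% in the Control and 89.8% in the knockout libraries. The share of Slc34a3 went from 1.94% to 0.0966%. The mean share of Slc20a1 was 1.46% in the Control and 5.19% in the knockout libraries, and that of Slc20a2 was 2.80% and 4.90%. These shares depend on each other and were not tested.

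Kl encodes klotho, which makes Fgf receptors responsive to FGF23 and is known chiefly from the distal convoluted tubule, with lower expression in the proximal tubule. It lies at chr5:151755182-151796384 on the plus strand. Its normalized counts were 10841, 11484 and 4065 in the Control and 2941, 1585 and 2208 in the knockout libraries. Control replicate 3 was lower than the other Control libraries but above every knockout library. The mean fell from 8797 ± 4111 to 2245 ± 678 (SD, n = 3 each), 3.92-fold lower (log2 fold change -1.97, SE 0.40, 95% interval -2.76 to -1.18, DESeq2 adjusted p 3.20e-05, edgeR adjusted p 0.0382). Leaving out any single library gave values from -2.32 to -1.74.

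Markers of the distal convoluted tubule fell alongside Kl. Of 6 markers 4 fell and none rose, with a median log2 fold change of -1.58. Their summed level ran from 29504 to 47691 normalized counts in the Control and from 11970 to 15329 in the knockout libraries. No marker was at 0, but Pvalb had only 1, 7 and 2 reads in the knockout libraries (log2 fold change -6.42). The log2 ratio of Kl to their mean log2 level was 1.84 ± 0.37 in the Control and 2.41 ± 0.65 in the knockout libraries (SD, n = 3 each), with overlapping groups (exact permutation p 0.3, adjusted 0.45). That mean weighs Pvalb as much as each other marker, so the direction of the difference may rest on this near-empty gene. Besides Pvalb, the log2 fold changes were -3.98 for Slc12a3, -2.07 for Trpm6, -1.09 for Wnk1, -0.71 for Cnnm2 and -0.38 for Tmem52b. That of Kl was -1.97. The ratio without Pvalb was not computed. All 6 markers of the thick ascending limb fell as well in DESeq2 (4 in edgeR, median log2 fold change -1.49; summed level 49316 to 114914 normalized counts in the Control and 14285 to 26141 in the knockout libraries). The part of these segments in the fall of Kl was not tested.

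Cyp27b1 and Cyp24a1, the enzymes that make and inactivate calcitriol, both rose. Cyp27b1 (chr10:126485306-126490062, plus strand) had 721, 398 and 897 normalized counts in the Control and 2076, 5343 and 3807 in the knockout libraries. Values varied more than 2-fold within each group, but every knockout library was above every Control library. The mean rose from 672 ± 253 to 3742 ± 1634 (SD, n = 3 each), 5.57-fold (log2 fold change 2.48, SE 0.40, 95% interval 1.70 to 3.26, DESeq2 adjusted p 3.97e-08, edgeR adjusted p 0.0195). Leaving out any single library gave values from 2.14 to 2.77.

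Cyp24a1 (chr2:170308208-170322645, minus strand) had 223, 318 and 212 normalized counts in the Control and 2353, 2103 and 1645 in the knockout libraries. Here both groups were tight and far apart. The mean rose from 251 ± 58.4 to 2034 ± 359 (SD, n = 3 each), 8.10-fold (log2 fold change 3.02, SE 0.25, 95% interval 2.54 to 3.50, DESeq2 adjusted p 1.64e-31, edgeR adjusted p 0.0015). Values without any single library ran from 2.90 to 3.22.

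Within each group, the library with most Cyp27b1 was not the one with most Cyp24a1. TfR1 knockout replicate 1 had the most Cyp24a1 and the least Cyp27b1 of its group, and Control replicate 2 stood the same way in its own. The log2 ratio of Cyp24a1 to Cyp27b1 was -1.69, -0.32 and -2.08 in the Control and 0.18, -1.34 and -1.21 in the knockout libraries. The groups overlapped (difference 0.57, exact permutation p 0.5, adjusted 0.6).

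Vdr (chr15:97684856-97741061, minus strand), the nuclear receptor for calcitriol, had 2623, 3214 and 1382 normalized counts in the Control libraries. In the knockout libraries it had 3203, 7339 and 3631. TfR1 knockout replicate 1 lay just under Control replicate 2, so the groups overlapped, and replicate 2 was the highest. The difference did not pass (log2 fold change 0.97, SE 0.40, 95% interval 0.19 to 1.76, DESeq2 adjusted p 0.0827, edgeR adjusted p 0.182). It passed without TfR1 knockout replicate 1 (1.19, DESeq2 adjusted p 0.0299) and was 0.51 without TfR1 knockout replicate 2.

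**Figure D3:**
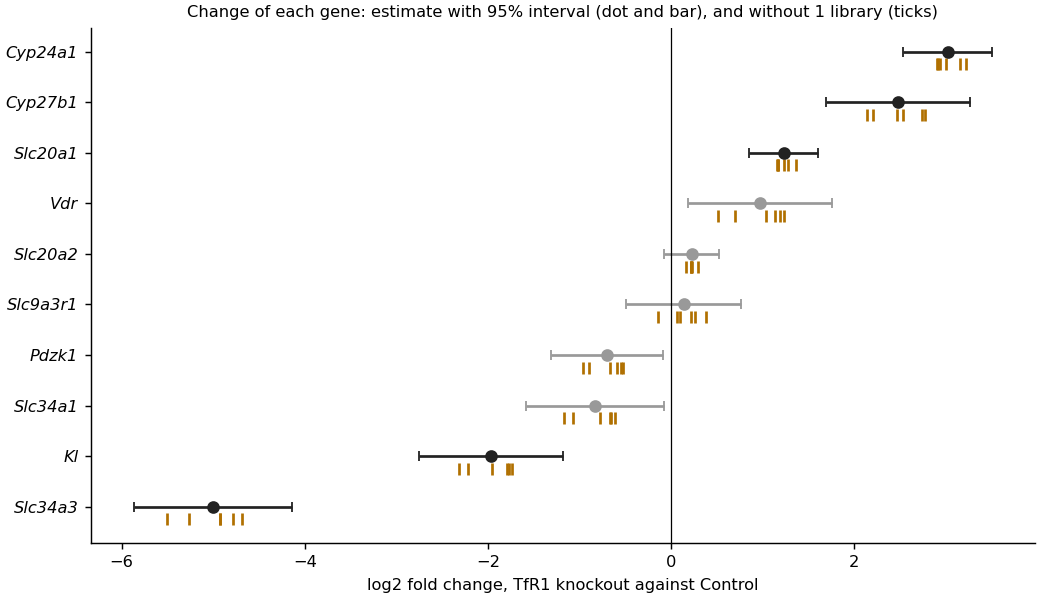
Log2 fold change of the 10 genes, TfR1 knockout against Control, from DESeq2 with 95% intervals (black where the adjusted p was under 0.05, grey otherwise). Brown ticks give the value without each library in turn. The ticks of the 5 black genes all keep their side of 0, from -5.50 for Slc34a3 to 3.22 for Cyp24a1, and those of Slc9a3r1 fall on both sides.

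Macrophage and injured tubule markers rose in the same libraries as Cyp27b1, Cyp24a1 and Slc20a1. Of 12 macrophage markers, 9 rose and none fell in DESeq2 (6 rose in edgeR, median log2 fold change 1.53; summed level 2917 to 4989 normalized counts in the Control and 8252 to 10613 in the knockout libraries). Of 8 genes known from injured tubules, 7 rose and none fell (4 rose in edgeR, median 2.62; summed level 7180 to 9236 in the Control and 18700 to 26338 in the knockout libraries). Collecting duct markers gave 2 higher and 1 lower of 6 in DESeq2 (1 and 1 in edgeR, median 0.23; summed level 8129 to 14022 in the Control and 26971 to 60889 in the knockout libraries, where the water channel Aqp2 made up most of the sum). No marker of these lists was at 0. The part of these cells in the rise of the 3 genes was not tested.

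Of podocyte markers 1 of 5 rose and of stroma markers 1 of 6 fell in DESeq2 (1 and 0 in edgeR). None of 6 endothelial markers passed in DESeq2 or edgeR, and none had an unadjusted p under 0.05 in either. Their summed levels overlapped between groups (10387 to 15933 and 14710 to 17931 for podocytes, 68423 to 136075 and 36636 to 68959 for stroma, 15532 to 25193 and 16895 to 19913 for endothelium, in normalized counts of Control and knockout libraries). The erythroid markers rested on 3 genes, of which Slc4a1, also known from the collecting duct, fell, since Hbb-b1, Hba-a1 and Hba-a2 were listed at 0 in every library.

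Levels can be compared between genes only per length, as RPKM, which divides a count by the exon length and the library total (computed here). In Control kidneys the order of the mean levels was Slc34a1 (630 RPKM), Pdzk1 (264 RPKM), Kl (91.1 RPKM), Slc9a3r1 (87.5 RPKM), Vdr (22.6 RPKM), Slc20a2 (15.7 RPKM), Cyp27b1 (14.1 RPKM), Slc34a3 (12.4 RPKM), Slc20a1 (8.43 RPKM) and Cyp24a1 (3.76 RPKM). The ranges of neighbours overlapped for Kl and Slc9a3r1 and for each step from Vdr down to Slc20a1. In knockout kidneys Slc34a1 (336 RPKM) and Pdzk1 (152 RPKM) stayed on top, followed by Slc9a3r1 (90.0 RPKM), Cyp27b1 (71.0 RPKM), Vdr (40.5 RPKM), Cyp24a1 (28.4 RPKM), Kl (22.2 RPKM), Slc20a1 (18.3 RPKM), Slc20a2 (17.0 RPKM) and Slc34a3 (0.365 RPKM). Every step from Slc9a3r1 to Slc20a2 overlapped there. Slc34a3 lay below all other genes in every knockout library. Cyp24a1, the lowest of the 10 in Control kidneys, stood at rank 6 in the knockout kidneys.

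For 5 of the genes the closest patterns over the 6 libraries were sought by Pearson's r, among genes averaging 100 normalized counts or more. The libraries share the group difference, so a high r describes these 6 points only. Slc34a3 was most like Slc5a2 (r 0.999), the sulfotransferase gene Sult1c2 (0.999) and the distal cotransporter gene Slc12a3 (0.998). Kl was most like Capn10 (0.998), Tmem72 (0.998) and Itgb6 (0.995). Cyp27b1 was most like Synj1 (0.998), LOC106740 (0.997) and Mbtps2 (0.996). The closest to Vdr were Pxn (0.999), Hsd17b4 (0.997) and Esrp1 (0.997). The closest to Slc34a1 were Hsph1 (0.997), Fam98a (0.992) and Ube2s (0.991), which share its low value in Control replicate 3 (990.3 normalized counts for Hsph1, against 2990 and 2965 in Control replicates 1 and 2).

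The count table also held 43 other genes listed for phosphate and vitamin D handling. Of 42 tested, 3 rose and 4 fell in DESeq2, and 3 and 2 of them by at least 2-fold. Of all genes tested 7.74% rose and 7.18% fell, so the list stood near the background. edgeR called 0 higher and 1 lower (4 and 6 at an unadjusted p under 0.05). The median log2 fold change was -0.14. Fgf23 itself, the bone hormone, had at most 4 reads in any library and was not tested.

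None of 9 further phosphate carriers and mineral enzymes passed in DESeq2 or edgeR, with 1 higher at an unadjusted p under 0.05 in either (Slc17a1). None of 5 scaffold partners passed, with or without adjustment, in either tool. Slc17a1, a proximal anion transporter that also carries phosphate, had 3194, 4030.2 and 2168 normalized counts in the Control and 4287, 10032 and 4414 in the knockout libraries (log2 fold change 1.00, SE 0.38, DESeq2 adjusted p 0.0588). Xpr1, the phosphate exporter of the plasma membrane, differed by 0.079 (SE 0.22, DESeq2 adjusted p 0.858). Among the scaffold partners the widest difference was that of the sodium-proton exchanger Slc9a3, at -0.57 (SE 0.34, DESeq2 adjusted p 0.269).

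Of 12 tested genes of the FGF23 and parathyroid hormone axis, 1 rose and 1 fell, near the 7.74% and 7.18% of all genes. Stc1, a stanniocalcin gene, had 416, 353 and 244 normalized counts in the Control and 675, 1002 and 528 in the knockout libraries, with no overlap (log2 fold change 1.12, SE 0.32, DESeq2 adjusted p 0.00561). It did not pass in edgeR (edgeR adjusted p 0.0652). Fgfr4, one of the Fgf receptors that klotho can partner, had 739.6, 793 and 342 in the Control and 367, 256 and 343 in the knockout libraries. It fell by 0.96 on the log2 scale (SE 0.35, DESeq2 adjusted p 0.0425), with groups that overlapped. The call of Fgfr4 was lost without Control replicate 1, Control replicate 2, TfR1 knockout replicate 2 or TfR1 knockout replicate 3 (DESeq2 adjusted p 0.244, 0.270, 0.171 and 0.120). Fgfr1, the main partner of klotho, differed by -0.030 (SE 0.17, DESeq2 adjusted p 0.932). Pth1r, the receptor for parathyroid hormone, had 8439.8, 9048 and 3503 normalized counts in the Control and 5481, 1501 and 2799 in the knockout libraries, with overlapping groups (-1.10, SE 0.48, DESeq2 adjusted p 0.109).

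Of 10 genes of vitamin D supply and receptor partners, 1 rose and 2 fell, beside 7.74% and 7.18% of all genes. Lrp2, the endocytic receptor megalin that takes up filtered vitamin D with its binding protein, had 25256, 26254 and 12909 normalized counts in the Control and 10851, 6311 and 5937 in the knockout libraries (log2 fold change -1.48, SE 0.35, DESeq2 adjusted p 0.00046), and its groups did not overlap. Lrp2 and Cubn also stand in the list of proximal tubule markers. The adaptor of megalin, Dab2, fell as well (-0.72, SE 0.18, DESeq2 adjusted p 0.00096), a call lost without Control replicate 1 (-0.65). Dab2 was the gene of the list that also passed in edgeR (adjusted p 0.0464). Cubn and Amn, which form the partner receptor cubam, differed by -0.57 and -0.93 without passing (DESeq2 adjusted p 0.180 and 0.104). Cyp27a1, a mitochondrial sterol hydroxylase that can also hydroxylate vitamin D, rose from 149, 180.0 and 324 to 301, 837 and 450.3 normalized counts (1.28, SE 0.44, DESeq2 adjusted p 0.0275). Its groups overlapped, and the call was lost without Control replicate 1, Control replicate 2, TfR1 knockout replicate 2 or TfR1 knockout replicate 3 (1.07, 1.16, 0.80 and 1.39). The receptor partners Rxra and Rxrb differed by 0.092 and 0.079 (DESeq2 adjusted p 0.810 and 0.785).

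Calcium handling genes known to respond to calcitriol did not move one way. Trpv6, an epithelial calcium channel, had 75.9, 95.4 and 130.2 normalized counts in the Control and 654, 199.6 and 269.6 in the knockout libraries. It rose (log2 fold change 1.90, SE 0.46, DESeq2 adjusted p 0.000818), with 1 knockout library far above the others, and the change was 1.23 without TfR1 knockout replicate 1. S100g, the calcium buffer calbindin-D9k, had 10753, 12004 and 14290.4 in the Control and 4847, 8454 and 4448 in the knockout libraries and fell (-1.06, SE 0.29, DESeq2 adjusted p 0.00322). Neither Trpv6 nor S100g passed in edgeR (edgeR adjusted p 0.0594 and 0.0598). Trpv5, the distal channel related to Trpv6, differed by -0.015 (SE 0.37, DESeq2 adjusted p 0.986), and Calb1 by -0.094 (SE 0.30, DESeq2 adjusted p 0.879).

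**Figure D4:**
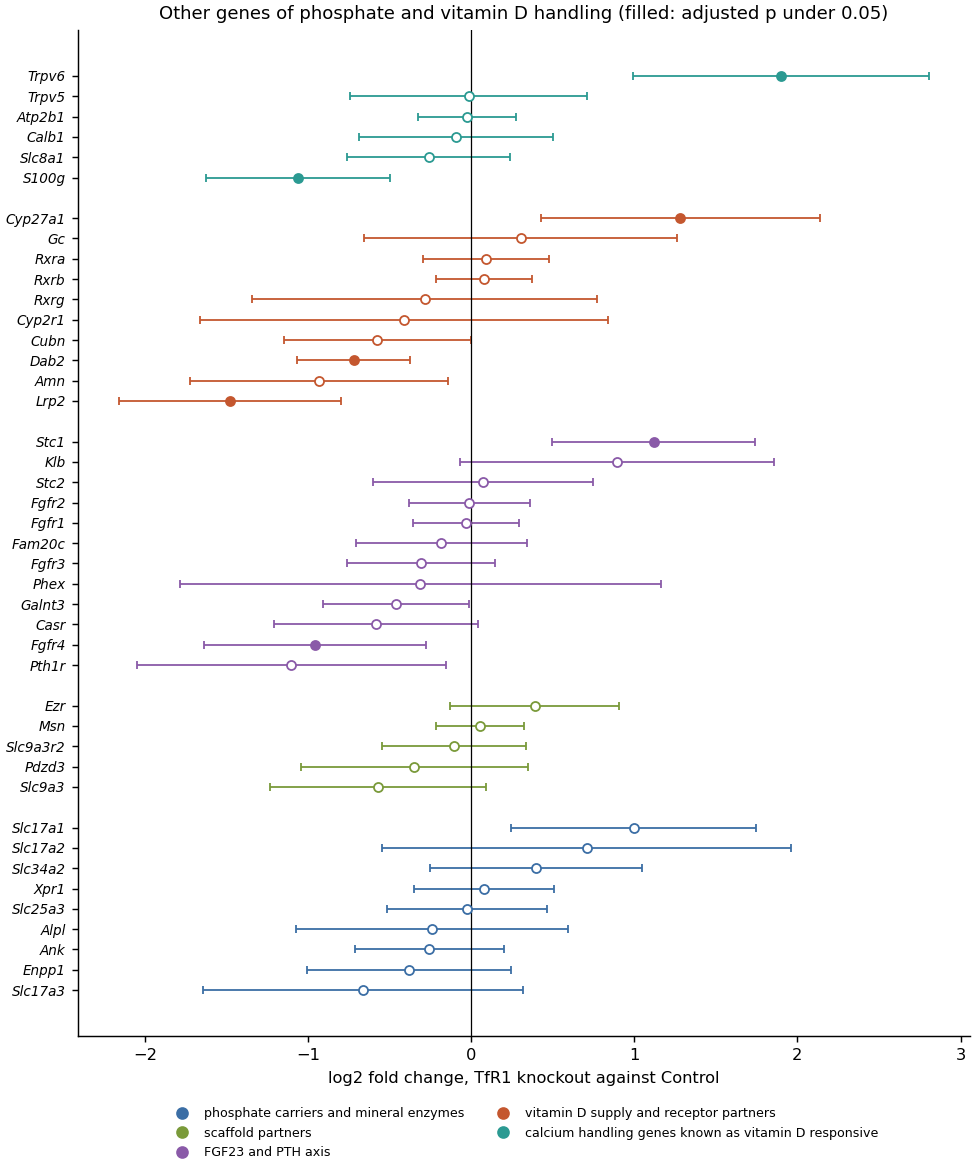
Log2 fold change with 95% interval (DESeq2, TfR1 knockout against Control) for the 42 tested genes of the wider list, grouped and coloured by role. Filled points passed at an adjusted p under 0.05. There are 7 filled points, 3 to the right of 0 (Trpv6, Cyp27a1 and Stc1) and 4 to the left (Lrp2, S100g, Fgfr4 and Dab2), and the phosphate carriers and scaffold partners have none.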

How the data were processed

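RNA from 6 whole kidneys was sequenced single-end from poly-A libraries. The authors trimmed reads with Trimmomatic, aligned them to mm9 (TopHat2 2.0.11) and counted uniquely aligned reads per gene with HTSeq. The deposited values are these raw counts, without normalization. The gene annotation and strand setting are not given in the sources used here. Totals were 16591156 to 22898008 per library, and precision is limited by the 3 libraries per group and, for low counts, by depth.

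Following the study, groups were compared with DESeq2 1.42.0 (R 4.3.3; Wald test, median-ratio size factors, Benjamini-Hochberg adjustment at 0.05, no covariate), on all genes. Independent filtering left 16509 genes (mean count of at least 3.51), and 29 had no p-value as outliers. The code was tested on simulated data. edgeR 4.0.16 and limma 3.58.1, other scalings, filters, a replicate block and leaving out each library were alternatives. Ratios used counts plus 0.5 and exact permutation tests. Positions and exon lengths came from GENCODE (mm9), promoters from RefSeq (GRCm38.p6). All 10 genes are named, with wider-list genes that passed or bear on them, some chosen after their values were seen. The genes, lists and tests were chosen with earlier results of these data known.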

Additional observations from a re-analysis of the deposited data

How the results depend on the processing

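The 5 calls among the 10 genes held under all 15 alternatives. Over 150 results of a gene under an alternative, 142 kept their direction and side of the threshold, 0 lost a call, 7 gained one (Slc34a1, Pdzk1 and Vdr) and 1 turned (Slc9a3r1, -0.15 without Control replicate 3, the lowest of -0.15 to 0.38 when each library was left out). For Tfrc the range was -0.095 to 0.30, below 0 without Control replicate 3 (-0.095) or TfR1 knockout replicate 1 (-0.072). Leaving out one library gave 664 to 1531 genes higher and 575 to 1674 lower over the table, 3 to 4 and 2 to 4 among the 10 genes, and 2 to 4 and 2 to 11 in the wider list, where the 11 came without Control replicate 3. The smallest counts over the table came without Control replicate 1 and the largest without TfR1 knockout replicate 1. The cause was not tested. edgeR gave 493 genes higher and 428 lower and limma-voom 485 and 456. In the wider list both gave 0 higher and 1 lower; edgeR passed Dab2. Of 105 results for the 7 called genes of that list, 23 lost the call. A threshold of at least 2-fold gave 728 and 736 genes, and 2 lower in the wider list. The 6 ratio differences moved by less than 1 SD, pooled over both groups, under every alternative. Leaving out TfR1 knockout replicate 1 gave 0.087 for Cyp24a1 to Cyp27b1, and leaving out Control replicate 2 gave 1.09. For Kl to distal convoluted tubule markers, with the near-empty Pvalb among them, the value reached 0.95 when TfR1 knockout replicate 2 was left out. That of Slc34a1 to proximal tubule markers crossed 0 without Control replicate 1 (0.0084) or TfR1 knockout replicate 2 (0.18).

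A fit with a replicate block gave 1085 higher and 1087 lower genes, and Pdzk1 and Vdr passed (-0.66 and 0.96, DESeq2 adjusted p 0.0219 and 0.00181). Same-numbered libraries deviated together with correlations of -0.038, 0.055 and 0.090, all under 0.1, so the libraries were treated as sharing only a number. The 27, 12 and 10 reads of Slc34a3 in the knockout libraries are the lowest counts among the 10 genes.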
